A study of Mus musculus with 2 samples.

Results

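The genes described here encode the enzymes that attach fatty acids to proteins and the enzymes that remove them. They were chosen by symbol alone, as every Zdhhc gene followed by a number together with Lypla1, Lypla2, Lyplal1, Ppt1, Ppt2, Porcn, Hhat, Hhatl, Nmt1 and Nmt2, which gave 34 of the 20211 gene symbols measured. Of these, 24 were Zdhhc genes, 5 encoded thioesterases, 3 belonged to the MBOAT family (membrane-bound O-acyltransferases) and 2 encoded N-myristoyltransferases. RNA was sequenced from perivascular cells (PVCs, called PCs below) grown out of the aorta of C57BL/6 mice, 1 library from wild-type (WT) cells and 1 from Kai1 KO (Kai1-/-) cells, in which Cd82, the gene of the tetraspanin KAI1, was targeted. Both cultures were kept in DMEM, with 10% FBS by the sample labels and a higher share by the culture methods of the study, and neither was treated. The sources used here do not say how many animals gave the cells of each library, their age or sex, or which part of Cd82 the allele removes. The Y-linked genes Ddx3y, Eif2s3y, Kdm5d and Uty were above 0 in WT and listed at 0 in Kai1-/- PCs. Sex and genotype thus cannot be told apart in any ratio below. With 1 library per genotype no difference below could be tested, and how far 2 cultures of the same genotype differ is not known.

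S-acylation, usually called palmitoylation, is the reversible attachment of a long-chain fatty acid to a cysteine through a thioester bond. It is carried out by the zDHHC enzymes, multi-pass membrane proteins named after a conserved Asp-His-His-Cys motif whose cysteine carries the acyl group during the reaction, and it is reversed by thioesterases. Tetraspanins such as KAI1 and CD9 are palmitoylated near the membrane, and the study asked which zDHHC enzyme acts on KAI1 in PCs. Its binding screen of the family gave zDHHC3 and zDHHC4. In a pericyte cell line, knockdown of zDHHC4 lowered KAI1 palmitoylation and knockdown of zDHHC3 did not. N-myristoylation, by contrast, is a stable amide-linked modification of an N-terminal glycine, and the MBOAT enzymes Porcn and Hhat acylate secreted WNT and Hedgehog proteins.

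The coding sequence around the motif shows which members of the Zdhhc family are close relatives. The Asp-His-His-Cys codons were searched in frame in the longest GENCODE M1 coding sequence of each gene (build NCBI37, mm9). They were found in 22 of the 23 Zdhhc genes with a coding transcript, and among all 22594 coding genes 0.133% held them. Of these 30 coding genes, 8 were not Zdhhc genes of the list. Zdhhc25 is annotated as a pseudogene and had no coding transcript. In Zdhhc13 the second codon read Gln. The windows below hold 144 bases of coding strand, with the 12 bases of the motif in capitals. Zdhhc9, Zdhhc14 and Zdhhc18 are shown because they are close relatives that were all lower in the Kai1-/- library, Zdhhc24 because it was also more than 2-fold lower, Zdhhc4 and Zdhhc3 because the study examined them, and Zdhhc13 for its altered motif.
Zdhhc9: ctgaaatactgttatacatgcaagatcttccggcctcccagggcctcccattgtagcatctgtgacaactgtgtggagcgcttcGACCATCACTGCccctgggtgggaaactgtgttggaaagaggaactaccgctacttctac
Zdhhc14: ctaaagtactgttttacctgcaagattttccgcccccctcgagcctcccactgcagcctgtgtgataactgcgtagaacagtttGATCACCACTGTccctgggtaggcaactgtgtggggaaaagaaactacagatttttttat
Zdhhc18: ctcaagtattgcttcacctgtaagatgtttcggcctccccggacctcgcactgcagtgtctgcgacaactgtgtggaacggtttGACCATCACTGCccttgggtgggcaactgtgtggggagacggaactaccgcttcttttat
Zdhhc24: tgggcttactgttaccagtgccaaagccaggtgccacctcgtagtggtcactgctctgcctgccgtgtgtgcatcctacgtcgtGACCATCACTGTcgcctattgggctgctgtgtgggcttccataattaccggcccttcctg
Zdhhc4: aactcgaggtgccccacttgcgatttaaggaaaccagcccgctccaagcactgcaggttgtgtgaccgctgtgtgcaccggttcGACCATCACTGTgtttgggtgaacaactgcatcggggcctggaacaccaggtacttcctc
Zdhhc3: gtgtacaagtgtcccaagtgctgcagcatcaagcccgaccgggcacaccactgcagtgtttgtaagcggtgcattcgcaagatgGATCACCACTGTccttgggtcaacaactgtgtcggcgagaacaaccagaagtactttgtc
Zdhhc13: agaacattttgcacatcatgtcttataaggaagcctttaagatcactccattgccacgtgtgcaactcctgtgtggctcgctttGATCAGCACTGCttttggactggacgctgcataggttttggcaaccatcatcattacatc

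The capitals lie at chrX:45536316-45536327 on the minus strand in exon 5 of 10 of Zdhhc9, at chr17:5712396-5712407 on the plus strand in exon 4 of 9 of Zdhhc14, and at chr4:133169834-133169845 on the minus strand in exon 4 of 8 of Zdhhc18. Those of Zdhhc24 lie at chr19:4880200-4880211 on the plus strand in exon 2 of 3. Those of Zdhhc4 lie at chr5:144082114-144082125 on the minus strand in exon 7 of 8, those of Zdhhc3 at chr9:122993389-122993400 on the minus strand in exon 4 of 7, and those of Zdhhc13 at chr7:56072576-56072587 on the plus strand in exon 13 of 17. Each window runs over at least 1 exon junction. Between the 253 pairs of windows the median identity was 54.9% of the bases, and 7 pairs reached 75%. These pairs joined Zdhhc5 to Zdhhc8 (86.8%), Zdhhc3 to Zdhhc7 (81.2%), Zdhhc2 to Zdhhc15 and Zdhhc20 (79.9% and 77.8%), and Zdhhc9, Zdhhc14 and Zdhhc18 to each other (75% to 78.5%). The window of Zdhhc4 had no such relative.

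The values are RPKM, which are reads normalised to transcript length and to all mapped reads, so that levels of different genes can be set side by side. Ratios of Kai1-/- over WT are on the log2 scale and were taken after adding 0.1 to each RPKM, which understates differences at low levels. The steps between low values corresponded to about 29500000 reads for WT and 26600000 for Kai1-/-, and 95% intervals from these estimated reads cover counting error only. Cd82, the targeted gene, stood at 12.8 RPKM in WT against 2.62 in Kai1-/- PCs (20.5%), and 1.72% of the genes kept had a lower ratio. Of 13 mural cell markers 7 passed the filter described below, among them Acta2 (smooth muscle actin) at 3823 and 2580 RPKM and Pdgfrb at 44.7 and 31.6. The other 6 were low, with the pericyte markers Rgs5 at 0.0630 and 0.233 and Abcc9 at 0.0411 and 0.0303. The summed RPKM of the mural markers was 4646 in WT and 2978 in Kai1-/- PCs, of which Acta2 made up 3823 and 2580. Of the 7 that passed the filter, 4 were more than 2-fold lower. Among those below it, Rgs5 and Kcnj8 (0 in WT and 0.791 in Kai1-/- PCs) were higher. Des, Notch3, Abcc9 and Anpep were lower. The summed level of 10 fibroblast markers was 3123 and 1492, of which Ly6a made up 1354 and 569. Col1a1 gave 924 and 534, and Col1a2 gave 824 and 377. Of the 8 fibroblast markers that passed, 5 were more than 2-fold lower, and Lum and Fap were listed at 0 in Kai1-/- PCs. The summed level of 16 macrophage markers was 40.9 and 19.5, with 5 and 7 of them at 0, Emr1 and the C1q genes in both libraries. Of the 5 macrophage markers that passed, 4 were more than 2-fold lower, Csf1r for example at 11.7 and 2.66, and Cd14 was higher, at 1.98 and 10.3. The summed level of 16 endothelial markers was 46.9 and 29.96, of which Eng made up 42.0 and 21.4, with 5 and 12 at 0. Pecam1 and Cdh5 stood at 0.413 and 0.0267 in WT and at 0 in Kai1-/- PCs. A decrease past 2-fold thus held for 57.1% of the mural, 62.5% of the fibroblast and 80% of the macrophage markers that passed. It held for 0 of the 3 endothelial markers that passed, of which Egfl7 rose past 2-fold (2.28 and 7.39). Among all 10068 genes that passed, the share with such a decrease was 7.81%, and among the acylation enzyme genes 19.2%. The part of these marker differences in the values below was not tested. In such bulk samples, fewer cells of a type and less RNA per cell cannot be told apart.

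Reads were found in at least 1 library for 29 of the 34 genes, and 26 passed the filter, which asked that the 2 libraries average 1 RPKM or more. The highest level was that of Nmt1, 178 RPKM in WT and 148 in Kai1-/- PCs, above 97.3% and 96.6% of all symbols. Among the Zdhhc genes of WT PCs, Zdhhc4 stood first with 45.1 RPKM (95% interval 42.9 to 47.4), followed by Zdhhc16 with 28.8 (27.3 to 30.3), Zdhhc8 with 20.1 (19.3 to 20.8), Zdhhc12 with 17.2 (15.9 to 18.6) and Zdhhc9 with 15.6 (14.8 to 16.4). The first 3 steps of this order were each larger than the counting intervals, while those of Zdhhc12 and Zdhhc9 overlapped. These intervals take the longest annotated transcript of each gene, of 13 for Zdhhc4. They leave out error from that choice and from exons shared with other genes, as for Zdhhc16. In Kai1-/- PCs the order at the top was Zdhhc12 with 29.0 RPKM (27.2 to 30.8), Zdhhc16 with 27.5 (25.9 to 29.1) and Zdhhc4 with 26.1 (24.3 to 27.9), and these 3 intervals overlapped each other. Zdhhc4 thus stood alone at the head of the family in WT and shared that place in Kai1-/- PCs. Over the whole family, 7 of 18 neighbours in the WT order and 12 of 17 in the Kai1-/- order had overlapping intervals.

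**Figure D1:**
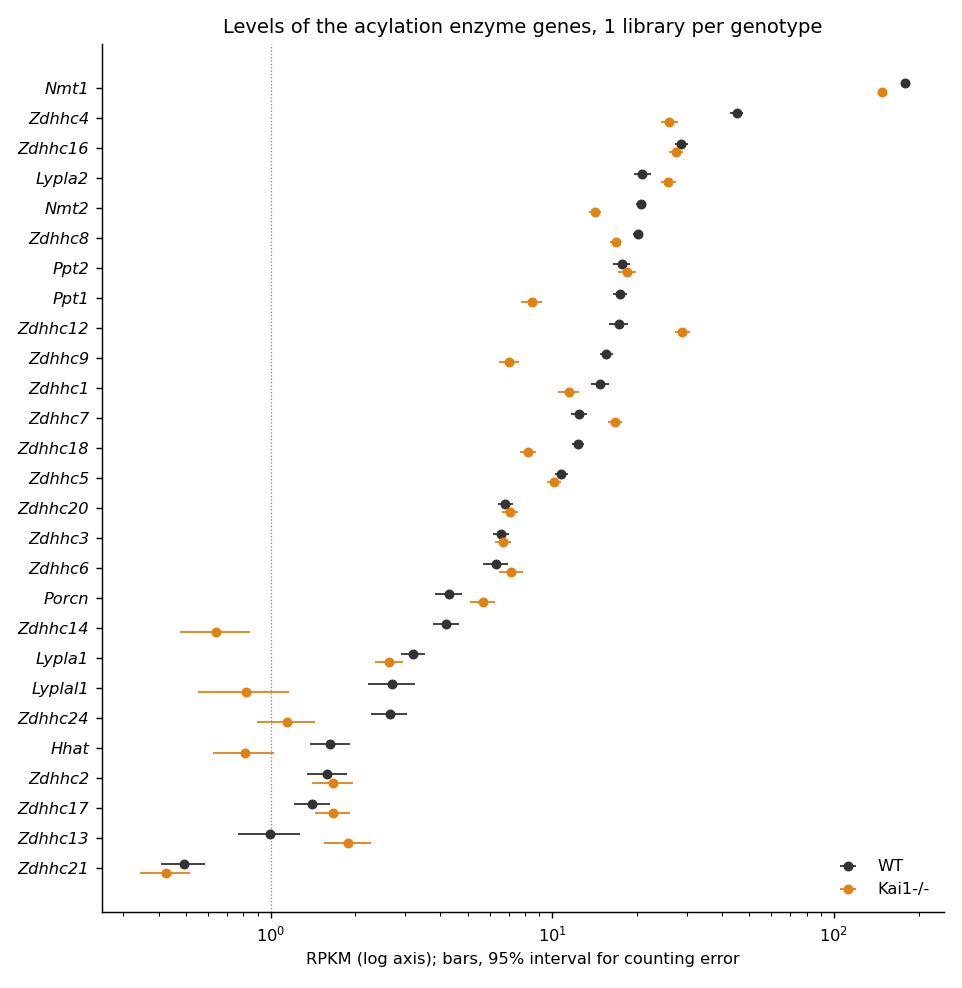
RPKM (log axis) of the 27 acylation enzyme genes above 0 in both libraries, in WT (black) and Kai1-/- (orange) PCs, 1 library each, with bars for the 95% interval of counting error. Zdhhc4 lies at 45.1 in WT and 26.1 in Kai1-/- PCs, while Zdhhc12 lies at 17.2 and 29.0.

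Summed over the family, the Zdhhc genes reached 208 RPKM in WT PCs and 181 in Kai1-/- PCs, 87.0% of WT, whereas the sum over all symbols was 884463 and 1238193. Zdhhc4 made up 21.7% of this sum in WT and 14.4% in Kai1-/- PCs, and Zdhhc12 made up 8.27% and 16.0%. The level of Zdhhc4 was 2.62 times that of Zdhhc12 in WT PCs and 0.90 times in Kai1-/- PCs. Such ratios within a library do not depend on how the libraries are scaled. The 3 leading genes together held 45.1% of the sum in WT and 45.5% in Kai1-/- PCs, and the 5 leading genes 60.9% and 64.0%. The first gene alone held 21.7% (Zdhhc4) and 16.0% (Zdhhc12). How concentrated the family total was in each library thus depends on how many genes are taken, while the leading genes differed.

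Of the 26 genes that passed the filter, 5 were more than 2-fold lower in the Kai1-/- library (Zdhhc14, Lyplal1, Zdhhc24, Zdhhc9 and Ppt1), or 19.2%, and 0 were more than 2-fold higher. By this measure 7.81% of the 10068 genes that passed the same filter were lower and 7.98% higher. Without the filter, 6 of 34 were lower, Zdhhc15 being added, against 9.29% of all symbols, and 0 were higher, against 5.96%. For 3 of the 5, Zdhhc14, Lyplal1 and Zdhhc9, the whole counting interval of the log2 ratio lay below -1. The median log2 ratio of the 26 was -0.17 and that of the 17 Zdhhc genes among them -0.07, with 9 below and 8 above 0, against 0.08 over all genes, and 15 of the 26 in all had a ratio below 0, against 44.9% of all genes. Zdhhc14, Lyplal1 and Hhat passed the filter through their WT level alone, with an RPKM below 1 in Kai1-/- PCs, and Zdhhc13 through its Kai1-/- level, so that the counts over genes that passed are a description and no support for a direction. With 1 RPKM added in place of 0.1, 3 of the 26 were more than 2-fold lower, against 5.68% of all genes.

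**Figure D2:**
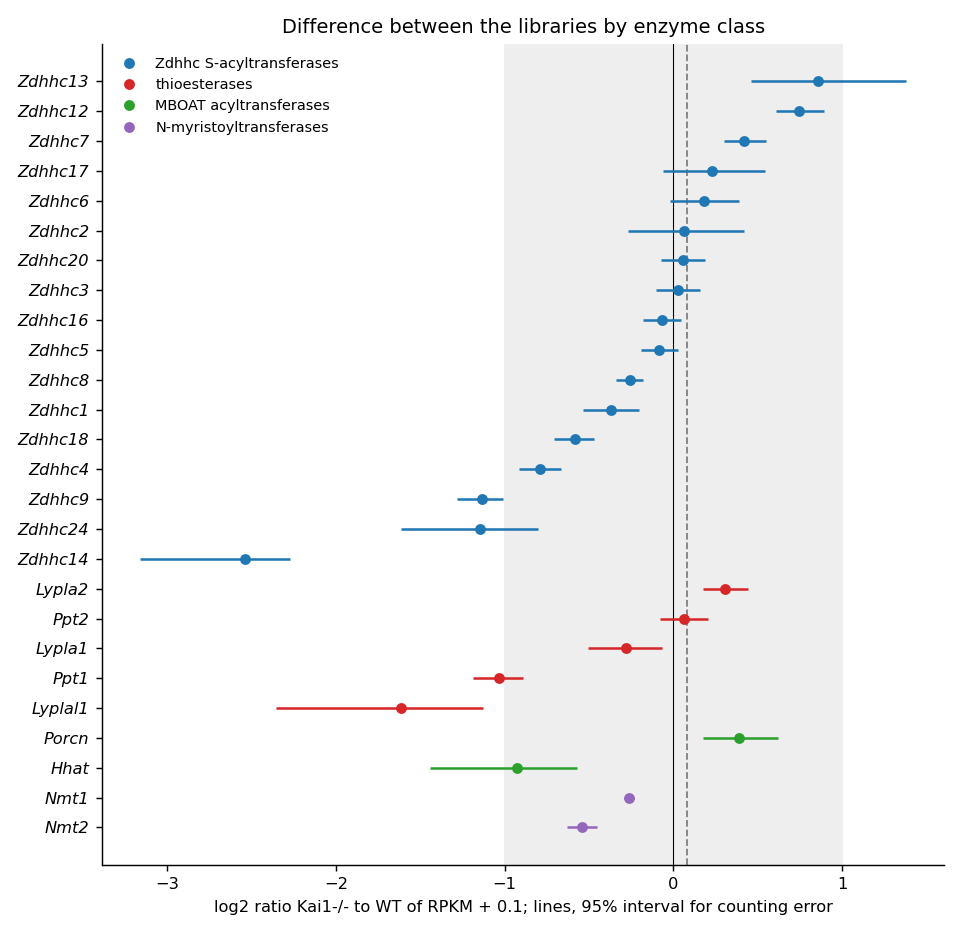
Log2 ratio of Kai1-/- to WT PCs for the 26 genes that passed the filter, by enzyme class. Points include the added 0.1 RPKM and lines give the 95% interval of counting error without it, the grey band marks less than 2-fold, and the dashed line marks the median of all genes, 0.08. Zdhhc14, Lyplal1, Zdhhc24, Zdhhc9 and Ppt1 lie left of the band and 0 genes lie right of it.

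**Figure D3:**
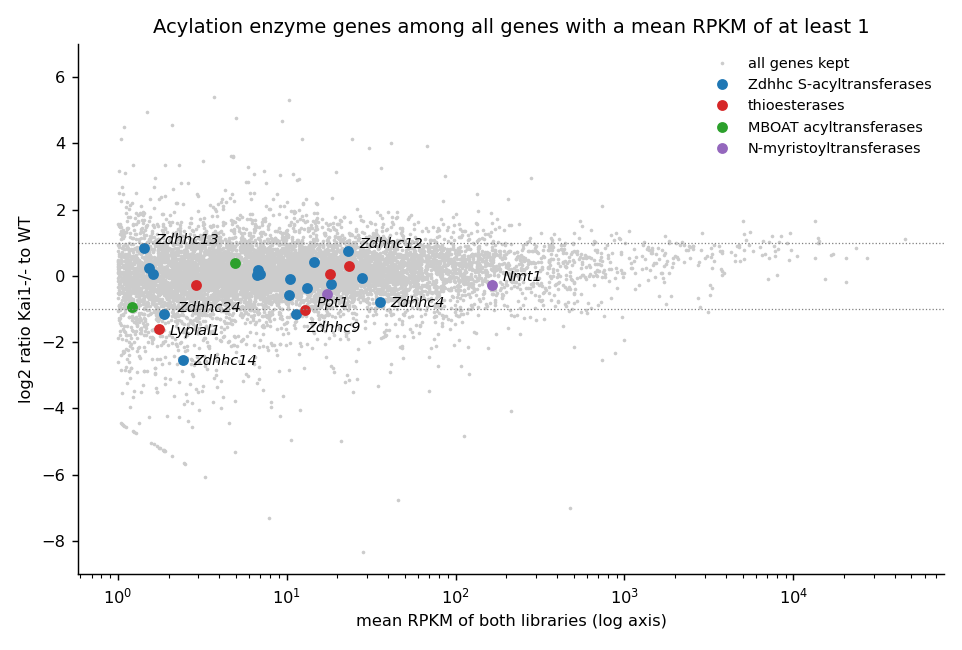
Log2 ratio of Kai1-/- to WT PCs against mean RPKM (log axis) for all 10068 genes kept (grey) and the 26 acylation enzyme genes (coloured by class), with dotted lines at 2-fold. Of the genes kept, 1.37% had a lower ratio than Zdhhc14, and 85.6% had a lower ratio than Zdhhc12.

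Among the Zdhhc genes that passed the filter the largest difference was that of Zdhhc14, on chromosome 17 from 5492600 to 5753891. The library from WT gave 4.20 RPKM and that from Kai1-/- cells 0.642, so that 15.3% of the WT level was left, with a log2 ratio of -2.54 (95% interval -3.16 to -2.27) from 360 and 49.8 estimated reads. Zdhhc9, on the X chromosome from 45525146 to 45562055, encodes the enzyme that palmitoylates HRAS and NRAS together with the partner protein encoded by Golga7. It had 15.6 RPKM in WT against 7.02 in Kai1-/- cells (45.2% of the WT level), which gave a log2 ratio of -1.14 (-1.29 to -1.01). Zdhhc18, on chromosome 4, had 12.3 and 8.20 RPKM, a log2 ratio of -0.58 (-0.71 to -0.47), which is less than 2-fold but past it when scaled to Gapdh. All 3 relatives were thus lower in the Kai1-/- library, by unequal amounts, and their summed level was 32.1 RPKM in WT and 15.9 in Kai1-/- PCs, or 49.5% of WT. Golga7 itself had 17.5 and 18.5 RPKM. Zdhhc9 is X-linked, and the 2 libraries differed in Y-linked genes, with Ddx3y at 6.56 RPKM in WT and Ddx3y, Eif2s3y, Kdm5d and Uty all listed at 0 in Kai1-/- PCs. The 272 X-linked genes kept had a median log2 ratio of 0.08, and sex and genotype cannot be told apart here.

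The other close relatives that passed the filter differed less between the libraries. Zdhhc5 and Zdhhc8, which act at the plasma membrane and in the Golgi, had 10.8 and 20.1 RPKM in WT and 10.2 and 16.8 in Kai1-/- PCs, log2 ratios of -0.08 and -0.26. Zdhhc2, an enzyme known to act on tetraspanins, had 1.59 and 1.66 RPKM and Zdhhc20 had 6.81 and 7.10, both with a log2 ratio of 0.06 and counting intervals that include 0, and both ratios, like those of Zdhhc3 and Ppt2, were below 0 once the median of all genes was set to 0. The Golgi enzymes Zdhhc3 and Zdhhc7 had 6.57 and 12.4 RPKM in WT and 6.69 and 16.7 in Kai1-/- PCs, log2 ratios of 0.03 (-0.10 to 0.16) and 0.42 (0.30 to 0.55), and the latter was -0.08 with both libraries scaled to Gapdh. Zdhhc9, Zdhhc14 and Zdhhc18 thus each had a lower ratio than any of these 6 genes, which was seen after the values were known and could not be tested with 1 library per genotype. Zdhhc24 (-1.14) and Zdhhc4 (-0.79), outside these relatives, also had lower ratios than Zdhhc18 (-0.58), so a lower ratio was not particular to the 3. Zdhhc15, the relative of Zdhhc2 that did not pass the filter, had a lower ratio than Zdhhc9 and Zdhhc18. It stood at -1.26, from 21.9 estimated reads in WT and 0 in Kai1-/- PCs. The grouping also depends on the cut, as Zdhhc9 and Zdhhc14 lie at 75% itself. Zdhhc9 shared 72.9% of the bases with Zdhhc5 and 71.5% with Zdhhc8.

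**Figure D4:**
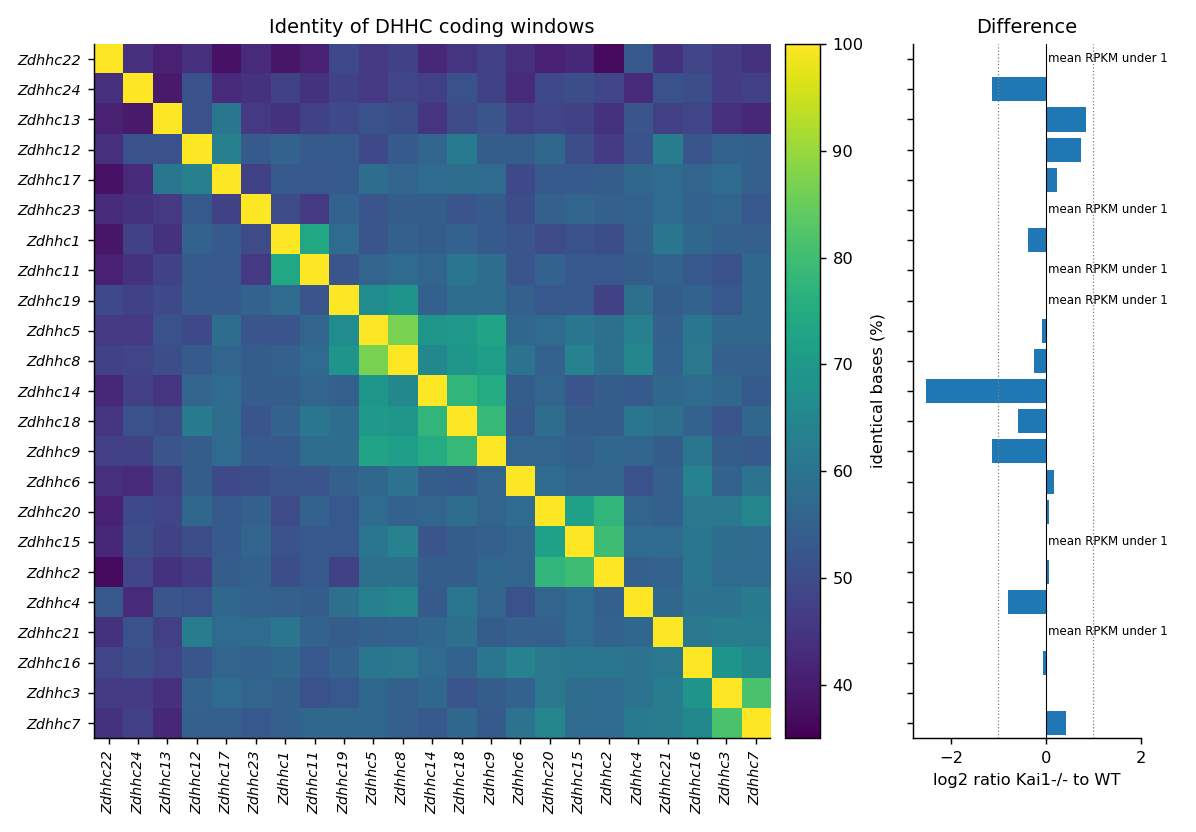
Left, identity in percent of the bases between the 144-base coding windows of 23 Zdhhc genes, ordered by average linkage. Right, log2 ratio of Kai1-/- to WT PCs for the 17 of them that passed the filter, in which the bars of Zdhhc14 (-2.54), Zdhhc9 (-1.14) and Zdhhc18 (-0.58) lie together.

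Zdhhc4, on chromosome 5 from 144078168 to 144090935, was lower in the Kai1-/- library by less than 2-fold, at 45.1 and 26.1 RPKM (57.8% of the WT level), with a log2 ratio of -0.79 (-0.92 to -0.67). Of all genes kept, 11.3% had a lower ratio. Zdhhc3, whose knockdown did not lower KAI1 palmitoylation in the study, differed by less than its counting interval. The level of Zdhhc4 was 6.87 times that of Zdhhc3 in WT PCs and 3.89 times in Kai1-/- PCs. Scaled to Gapdh, which itself had a log2 ratio of 0.50, Zdhhc4 had a log2 ratio of -1.29 and Zdhhc3 one of -0.47. Zdhhc24, on chromosome 19, had 2.64 RPKM in WT against 1.14 in Kai1-/- cells, with a log2 ratio of -1.14 (-1.62 to -0.80), an interval that runs to both sides of 2-fold.

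The largest ratios above 0 were those of Zdhhc13 and Zdhhc12. Zdhhc13, with ankyrin repeats and the altered motif, had 0.995 RPKM in WT against 1.88 in Kai1-/- cells, with a log2 ratio of 0.86 (0.46 to 1.38), from 64.6 and 111 estimated reads. Zdhhc17, the other Zdhhc enzyme with ankyrin repeats, had 1.41 and 1.66 RPKM, a log2 ratio of 0.23 (-0.06 to 0.54). Zdhhc12 had 17.2 and 29.0 RPKM (168% of the WT level), with a log2 ratio of 0.75 (0.61 to 0.90). Zdhhc12 and Zdhhc13 stayed above 0 under every scaling tried. Zdhhc12 shares 4.43% of its exon bases with Pkn3 on the opposite strand, and Zdhhc16 shares 38.7% with Mms19, whose reads cannot be told apart from its own unless strand was used, which the sources do not state. Of the remaining genes, Zdhhc16 had 28.8 and 27.5 RPKM (-0.07), Zdhhc1 14.8 and 11.5 (-0.37) and Zdhhc6, an enzyme of the endoplasmic reticulum, 6.31 and 7.15 (0.18).

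At the low end, Zdhhc21, known to act on endothelial nitric oxide synthase, had 0.490 RPKM in WT and 0.424 in Kai1-/- PCs. Zdhhc15, X-linked like Zdhhc9, had 0.140 RPKM in WT, 21.9 estimated reads, and was listed at 0 in Kai1-/- PCs, where a count of 0 allows up to 3 reads, or 0.0212 RPKM. Set against that limit it was at least 6.58-fold lower, a value that leaves out the counting error of the WT reads. Zdhhc11, Zdhhc19, Zdhhc22, Zdhhc23 and Zdhhc25 were listed at 0 in both libraries, and 3 reads would correspond to between 0.0813 RPKM (Zdhhc11) and 0.175 RPKM (Zdhhc22) in the WT library. These are the levels that a count of 0 allows, for counting error only.

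Among the genes of the thioesterase group, whose best known members reverse S-acylation, 2 of 5 were more than 2-fold lower, against 7.81% of all genes. Lyplal1, on chromosome 1, had 2.70 RPKM in WT against 0.816 in Kai1-/- cells (30.2% of the WT level), which gave a log2 ratio of -1.61 (-2.36 to -1.13), from 109 and 29.9 estimated reads. Ppt1, on chromosome 4 from 122513485 to 122536418, encodes the lysosomal palmitoyl-protein thioesterase whose loss causes a neuronal storage disease. It had 17.4 and 8.44 RPKM (48.6% of the WT level), with a log2 ratio of -1.03 (-1.19 to -0.89). Ppt1 shares 3.51% of its exon bases with Cap1 on the opposite strand. The second lysosomal thioesterase gene, Ppt2, had 17.7 and 18.5 RPKM (0.06), although 36.6% of its exon bases are shared with the annotated gene Gm20460 on the same strand. The lysosomal pair thus had overlapping counting intervals in WT PCs, with a ratio of Ppt1 to Ppt2 of 0.982, and apart in Kai1-/- PCs, with a ratio of 0.457. The cytosolic acyl-protein thioesterases encoded by Lypla1 and Lypla2 had 3.21 and 20.9 RPKM in WT and 2.63 and 25.8 in Kai1-/- PCs, log2 ratios of -0.28 (-0.51 to -0.07) and 0.31 (0.17 to 0.44), and that of Lypla2 was -0.19 when scaled to Gapdh. Lypla2 was the more abundant of the pair, by 6.51 times in WT and 9.83 times in Kai1-/- PCs.

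The 2 MBOAT genes that passed the filter differed in opposite directions. Hhat, the Hedgehog acyltransferase gene, had 1.63 RPKM in WT against 0.810 in Kai1-/- cells (49.7% of the WT level), which gave a log2 ratio of -0.93 (-1.44 to -0.57), just short of 2-fold with 0.1 RPKM added. Porcn, the X-linked gene of the WNT acyltransferase, had 4.29 and 5.65 RPKM, a log2 ratio of 0.39 (0.18 to 0.62), which was -0.10 when scaled to Gapdh. Hhatl, a relative of Hhat best known from muscle, had 0.0436 RPKM in WT, 2.14 estimated reads, and was listed at 0 in Kai1-/- PCs.

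Both N-myristoyltransferase genes were lower by less than 2-fold, although Nmt2 was past 2-fold when scaled to Gapdh. Nmt1, on chromosome 11, had 178 and 148 RPKM, a log2 ratio of -0.26 (-0.29 to -0.24), and Nmt2, on chromosome 2, had 20.7 and 14.2 RPKM, a log2 ratio of -0.54 (-0.63 to -0.45). The narrow interval of Nmt1 reflects its 24465 and 18410 estimated reads and says nothing of how far cultures differ. Nmt1 exceeded Nmt2 by 8.62 times in WT and 10.5 times in Kai1-/- PCs.

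The counts for the other genes of protein lipidation stand beside 7.81% lower and 7.98% higher over all genes. Of 6 accessory proteins and other depalmitoylases that passed the filter, 0 were more than 2-fold lower and 1 was higher, Abhd10, a mitochondrial depalmitoylase gene, with 0.806 RPKM in WT and 1.92 in Kai1-/- PCs. The depalmitoylase gene Abhd17a was at 82.0 and 107 RPKM, and Selk, which encodes the partner of zDHHC6, at 32.4 and 35.3. Of 9 prenylation and CAAX-processing genes, of 10 genes of acyl-CoA supply and binding, and of 6 further MBOAT and methionine aminopeptidase genes, 0 were past 2-fold in either direction. The median log2 ratios of these 4 lists were 0.10, 0.16, 0.12 and 0.52, against 0.08 over all genes, -0.17 for the 26 acylation enzyme genes, -0.07 for the 17 Zdhhc genes and -0.28 for the 5 thioesterases.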

How the data were processed

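The authors aligned reads to mm9 (NCBI37) with TopHat2 2.0.9 and Bowtie and deposited 1 RPKM value per gene and library. The aligner names and the build are also given in the submitters' processing notes. Library type and strand are not given in the sources used here. The 38 unnamed rows of 20462 were dropped and 153 symbols listed more than once, none of them an acylation enzyme, were averaged. The log2 ratio used a pseudocount of 0.1 RPKM, and 10068 genes averaging 1 RPKM or more were kept. With 1 library per genotype no test was run and a call means more than 2-fold. Genes and lists were chosen with earlier results of these data known. All genes matched by the rule are named, and from each related list up to 3 per direction past 2-fold. Outside that plan, the text also names some listed genes not past 2-fold or below the filter, such as Golga7, Selk, Cd9, Src and Shh. Reads were estimated from steps of low RPKM values in 5844 genes with a single transcript of GENCODE M1, where 81.1% (WT) and 80.7% (Kai1-/-) of low values came within 0.15 reads of a whole number, using the longest transcript and a fragment of 210 and 200 bases. The ratio intervals are exact binomial (Clopper-Pearson) and the level intervals exact Poisson, at 95%. The step fit and the 2-fold call were tested on simulated data with counting error only, and the call with decreases well past 2-fold. Differences between cultures were not part of these simulations. Alternatives were other pseudocounts, scalings, filters and handling of repeated symbols. Python 3.11.15, numpy 2.4.6, pandas 2.3.3, scipy 1.17.1 and matplotlib 3.10.9 were used. Protein sequences were not used here.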

Additional observations from a re-analysis of the deposited data

How the results depend on the processing

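The 5 genes more than 2-fold lower became 3 with a pseudocount of 1 RPKM (572 of all genes), 2 of 17 with a mean RPKM of at least 5 (350 of 6518), 6 with the median of all genes set to 0, which added Hhat (912 of all genes), and 9 when scaled to Gapdh, which added Hhat, Nmt2, Zdhhc18 and Zdhhc4 (1856 of all genes). Scaling to Gapdh moved the median of all genes to -0.41, that of the 26 acylation enzymes to -0.67 and that of the 17 Zdhhc genes to -0.57, because Gapdh itself was higher in the Kai1-/- library. Gapdh stood at 141% of WT there, and the RPKM sum over all symbols at 140%. Scaling to equal sums was not run. Without the genes whose exons overlap another annotated gene, chosen after seeing the data, the Zdhhc median was -0.26 over 11 genes, against -0.07 over 17. That setting left out Ppt1, and 4 of 16 genes were more than 2-fold lower, against 7.81% of all genes. The count of genes more than 2-fold higher was 0 in every setting. The same share over all genes ran from 2.76% (scaled to Gapdh) to 8.37% (pseudocount of 0.01 RPKM). A count of 0 among so few genes is thus no support for a direction. Recomputing the ratio of each of the 26 genes gave 156 values. Of these, 129 moved by less than the mean distance from the ratio to the ends of its counting interval. Those 129 include 26 values from the handling of repeated symbols, which could not move because no acylation enzyme symbol was repeated. Of the 156 values, 17 changed sign, 9 of them under scaling to Gapdh and none among the 5 lower genes. Leaving out the X-linked genes, also chosen later, left 4 lower of 24. No paired analysis was possible because only 1 library stands for each genotype. Depth limits genes such as Lyplal1, with 29.9 estimated reads in the Kai1-/- library.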

Other observations

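The proteins that these enzymes modify were looked up as lists in the same libraries. Of 20 genes of S-palmitoylated proteins that passed the filter, 2 were more than 2-fold lower in Kai1-/- PCs, the targeted Cd82 and Gnaq, which encodes a G protein alpha subunit (9.14 RPKM in WT and 4.26 in Kai1-/- PCs), and 1 was higher, the transferrin receptor gene Tfrc (3.06 and 8.41), against 7.81% and 7.98% of all genes. The palmitoylated tetraspanins did not move together, with Cd9 at 78.7 and 148, Cd81 at 389 and 235 and Cd151 at 238 and 267 RPKM. The lipid raft genes Flot1 and Cav1 were at 170 and 60.0 RPKM in WT and at 125 and 46.0 in Kai1-/- PCs, while Flot2 and Cav2 were at 88.8 and 2.23 RPKM in WT and at 92.0 and 4.10 in Kai1-/- PCs. The median log2 ratio of this list was -0.36.

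Of 16 genes of N-myristoylated proteins, 3 were more than 2-fold lower and 0 higher, against 7.81% and 7.98% of all genes. Basp1, a myristoylated membrane protein gene, had 253 RPKM in WT and 56.3 in Kai1-/- PCs (log2 ratio -2.17), Gnai1 had 1.83 and 0.400 (-1.95), and the Src family kinase gene Fyn had 11.9 and 4.12 (-1.51). Src itself had 11.8 and 9.19 RPKM. The median log2 ratio of this list was -0.26.

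Of the 22 WNT and Hedgehog genes, whose products Porcn and Hhat acylate, 6 passed the filter. Against the same shares of all genes, 1 of these 6 was higher and 1 lower. Wnt4 was more than 2-fold higher, with 4.01 and 10.1 RPKM, and Wnt5a more than 2-fold lower, with 1.90 and 0.829. The Hedgehog genes Shh, Ihh and Dhh were at 0, 0.0602 and 0.125 RPKM in WT and all listed at 0 in Kai1-/- PCs. These are values of 1 library per genotype, with no test.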
